A study of Mus musculus with 12 samples.

Results

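The transcriptomes of mouse embryonic stem cells (mESCs) and NIH3T3 fibroblasts were compared, gene by gene and transcript by transcript. A gene entered when its summed transcripts reached a TPM of 1 (TPM is a transcript's share of all RNA molecules, corrected for its length and scaled to a sum of 1000000) in either cell type, which 15065 of the 54352 gene symbols did. Of these, 12703 were protein-coding and 2362 belonged to other classes. The mESCs were of the E14 line (E14TG2a), and NIH3T3 is an established line of mouse embryonic fibroblasts. Both were cultured alike in GMEM with serum and leukemia inhibitory factor (LIF), so LIF was also present for the fibroblasts. Total RNA was made into strand-specific libraries, 1 per cell type, and neither the RNA selection (poly(A) or removal of ribosomal RNA) nor whether the Ctr9-GFP knock-in lines gave the RNA is given in the sources used here. With 1 library on each side there is no replicate error, no test was made, and every difference below describes this pair of libraries. In bulk RNA, fewer cells with a transcript and less of it per cell cannot be told apart.

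mESCs are kept in the pluripotent state by a network of transcription factors around Oct4 (encoded by Pou5f1), Sox2 and Nanog, and they grow as epithelial colonies held together by E-cadherin. Fibroblasts are mesenchymal cells that secrete collagen-rich matrix and pull on it with stress fibers. Cell types can also differ in the choice of promoter and of exons within a gene, which can change the protein made without changing the amount of RNA.

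The estimated counts summed to 26400407 in mESCs and 28849497 in NIH3T3 cells. Both labels fitted their defining markers. Pou5f1 (chr17:35506018-35510772, plus strand, GRCm38) stood at 1553 TPM in mESCs and 0 in NIH3T3 cells, Sox2 at 364 and 0, and Nanog at 301 and 0.511. Col1a1 (chr11:94936224-94953042, plus strand), a chain of collagen I, stood at 0.203 TPM in mESCs and 1386 in NIH3T3 cells. Of 15 markers of other cell types, 4 reached 1 TPM in either library. These were the macrophage genes Cd68 (61.5 TPM in mESCs, 5.06 in NIH3T3 cells) and Csf1r (0 and 2.37), the cardiac gene Tnnt2 (1.59 and 7.85) and the endothelial gene Tie1 (1.65 and 0.0444). The summed level of these 15 genes was 67.9 TPM in mESCs and 15.6 in NIH3T3 cells, and Emcn, Alb, Hbb-bs and Ins2 were at 0 in both. Their part in the differences was not tested.

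A difference of at least 2-fold on the log2(TPM + 1) scale was used to call a gene higher on one side. By this rule 3839 genes (25.5%) were higher in mESCs and 3208 (21.3%) in NIH3T3 cells, and the median log2 ratio of all 15065 genes was 0.11. The other genes, the larger group, lay within 2-fold. For protein-coding genes the counts were 3122 (24.6%) and 2630 (20.7%). A level of 1 TPM was reached in both libraries by 9958 protein-coding genes, in mESCs alone by 1687 and in NIH3T3 cells alone by 1058. Across the 12703 protein-coding genes Pearson's r of the log2 levels was 0.66, where genes are not independent replicates. Genes higher in mESCs made up 20.4% of the RNA of mESCs by TPM and 4.52% of that of NIH3T3 cells. Genes higher in NIH3T3 cells made up 21.5% of the RNA there and 4.08% in mESCs.

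**Figure D1:**
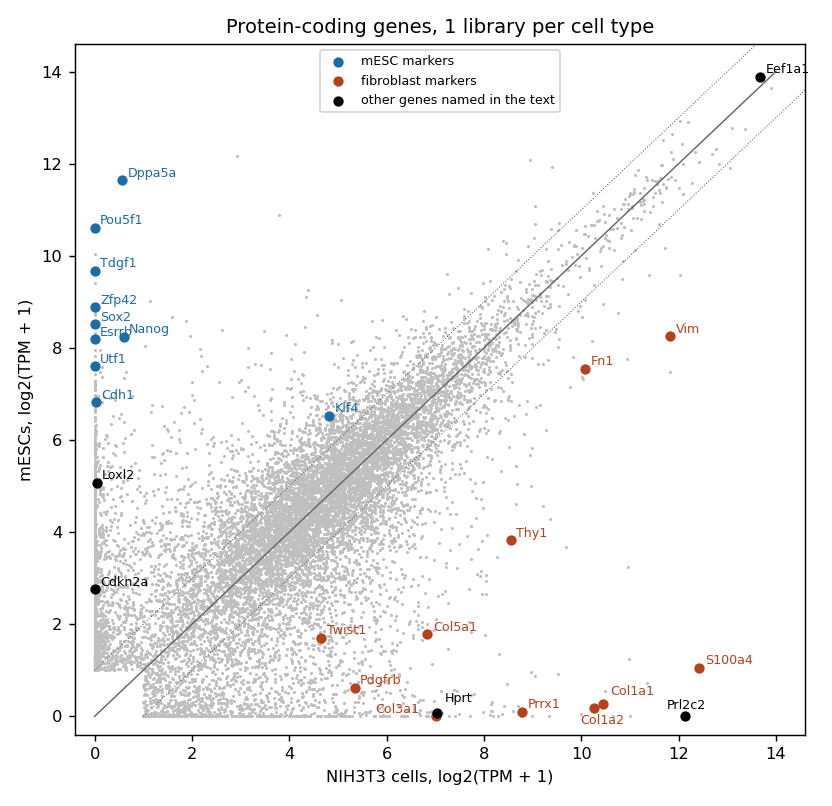
Level of every protein-coding gene kept, in mESCs (vertical axis) against NIH3T3 cells (horizontal axis), both as log2(TPM + 1). Each point is 1 gene, the solid line marks equal levels and the dotted lines 2-fold. Pou5f1, Sox2 and Tdgf1 lie on the left edge at 0 in NIH3T3 cells, while Col1a1, Prl2c2 and S100a4 lie along the bottom, and Eef1a1 sits near the line of equality.

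Genes were ranked by the log2 ratio of TPM + 1, which for genes at 0 on one side follows their abundance on the other. Toward mESCs the first was Dppa5a, an RNA-binding protein gene of pluripotent cells, at 3190 TPM in mESCs and 0.482 in NIH3T3 cells, a ratio of 6624-fold without the added 1. Pou5f1 was next by this rank and, without the added 1, at least 11996-fold higher in mESCs when the 0 in NIH3T3 cells is replaced by a floor of 3 counts. The Nodal co-receptor gene Tdgf1 (820 and 0 TPM), the zinc finger gene Zfp42 (470 and 0) and the orphan nuclear receptor gene Esrrb (290 and 0) were at least 9857-fold, 5264-fold and 6816-fold higher. The set was not made of transcription factors alone. Tdh, which encodes threonine dehydrogenase, stood at 807 TPM against 0, and L1td1, an RNA-binding protein gene derived from a LINE-1 element, at 677 against 0. Hspb1, a small heat shock protein gene, had 1049 TPM in mESCs and no count in NIH3T3 cells, and Trh, the precursor of thyrotropin-releasing hormone, had 432 and none. Lefty2, a secreted inhibitor of Nodal, had 246 and none, and Bex1 (417) and Hsd17b14 (317) were also at 0 in NIH3T3 cells. The remaining genes of the 15 at this end were Sox2, Hist1h2ao and Ftl1-ps1, and the histone and ferritin entries have near-identical copies described further on.

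The 15 genes with the largest ratios toward NIH3T3 cells included hormone, matrix, receptor and transcription factor genes, and Gm11361 and Gm10260, copies of the ribosomal protein gene Rps18. Prl2c2, a proliferin hormone, stood at 0 TPM in mESCs and 4499 in NIH3T3 cells, and its copy Prl2c3 at 0 and 650. Reads of this pair cannot be divided with certainty, since the sequences are 99.5% identical. S100a4, a calcium-binding protein long used as a fibroblast marker, stood at 1.07 TPM in mESCs and 5512 in NIH3T3 cells. Il1rl1, the receptor of interleukin 33, stood at 0.0106 and 1616 TPM, and Dlk1, a surface protein of preadipocytes, at 0.654 and 2629. Lox, the enzyme that crosslinks collagen, stood at 0.0299 and 1019 TPM. Its lower value rests on so few counts that the 34118-fold ratio has a 95% exact counting interval of 9445 to 281729. The collagen chain gene Col6a1 (0.111 and 434 TPM), the proteoglycan gene Bgn (0.468 and 1434), the caveolar coat gene Cav1 (0 and 509) and the pentraxin gene Ptx3 (0 and 430) were also among the 15 at this end, with Prrx1, a transcription factor gene, and the collagen I chain genes.

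Of the 10 highest genes of mESCs and of NIH3T3 cells, S100a4 in NIH3T3 cells was the one near 0 on the other side, at 1.07 and 5512 TPM. Eef1a1, the translation elongation factor, stood at 15171 TPM in mESCs and 13043 in NIH3T3 cells, and mt-Atp6 at 12810 and 15242. The chaperone gene Hsp90ab1 stood at 7677 and 4678, and the mitochondrial gene mt-Nd1 at 3842 and 8516. Among abundant genes nearest to equality were Nop56, a nucleolar protein gene, at 566 and 568 TPM, and the ribosomal scaffold gene Rack1 at 2123 and 2098. The 100 highest genes held 32.6% of TPM in mESCs and 34.2% in NIH3T3 cells.

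Gene groups were then read against the shares of 25.5% and 21.3% given for all genes. All 3 core pluripotency genes were higher in mESCs. Of 31 further genes of the naive state, 31 were higher in mESCs, with a median log2 ratio of 6.93, or 10.09 when the 19 of them at 0 in NIH3T3 cells are placed at their bound. Members differed in how empty the fibroblast side was. Klf4, 1 of the reprogramming factors, stood at 91.5 TPM in mESCs and 27.1 in NIH3T3 cells, and Tbx3 at 113 and 28.4. Klf5 stood at 311 and 14.2 TPM and Klf2 at 251 and 3.48. So the Klf and Tbx3 transcripts were present on both sides, whereas Zfp42, Esrrb and Tdgf1 had no count in NIH3T3 cells. Of 18 formative and germ layer genes 9 reached 1 TPM, and 6 of these were higher in mESCs and 1 in NIH3T3 cells. Bmp4, a bone morphogenetic protein, led them with 249 TPM in mESCs and 0.0735 in NIH3T3 cells, and Otx2, a factor of the primed state, stood at 8.96 and 0. The endoderm factor Gata4 stood at 3.74 and 7.88 TPM.

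Epithelial genes were higher in mESCs in 18 of 19 cases, with a median log2 ratio of 4.10, or 6.59 with genes at 0 placed at their bound. Cdh1, which encodes E-cadherin, stood at 112 TPM in mESCs and 0.0148, from 1 count, in NIH3T3 cells. The adhesion molecule gene Epcam stood at 125 and 0, the tight junction gene Cldn4 at 56.0 and 0, and the keratin gene Krt8 at 39.2 and 0. The junction scaffold gene Tjp1 was the member within 2-fold, at 48.3 and 25.6 TPM. The list of mesenchymal regulators, which also holds the markers Vim and S100a4, ran the other way, with 18 of 19 higher in NIH3T3 cells and a median of −3.74. Snai1, a repressor of E-cadherin, stood at 2.49 TPM in mESCs and 80 in NIH3T3 cells, Zeb1 at 5.86 and 36.5, and Zeb2 at 0.426 and 18.1. Twist2 stood at 0 and 59.4, the limb mesenchyme factor gene Prrx1 at 0.0748 and 439, and the osteoblast factor gene Runx2 at 0.0169 and 31.9. Fosl1, a subunit of AP-1, stood at 0.287 and 106 TPM, and Tead1, the DNA-binding partner of YAP, at 22.8 and 39.1, within 2-fold.

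Fibroblast matrix genes were higher in NIH3T3 cells in 30 of 31 cases, with a median log2 ratio of −6.55, or −6.82 with the genes at 0 in mESCs at their bound. Their summed level was 557 TPM in mESCs and 12142 in NIH3T3 cells. The exception was Loxl2, a relative of Lox, at 32.6 TPM in mESCs and 0.0318 in NIH3T3 cells. The same enzyme family thus stood at opposite ends of the scale in these libraries. Surface and contractile genes of fibroblasts were higher in NIH3T3 cells in 21 of 24 cases, with a median of −3.90. The hyaluronan receptor gene Cd44 stood at 0.0472 TPM in mESCs and 141 in NIH3T3 cells, the receptor kinase gene Axl at 1.56 and 319, and smooth muscle actin, Acta2, at 0.0337 and 179. Against the rest, Eng, a co-receptor of transforming growth factor beta, stood at 13.1 and 0.174 TPM, and Egfr at 2.54 and 0.146. Over both kinds of list, 52 of 53 mESC and epithelial genes were higher in mESCs, and 69 of 74 mesenchymal and fibroblast genes were higher in NIH3T3 cells. These lists are textbook markers of the cell types, so their direction checks the labels and adds nothing independent.

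**Figure D2:**
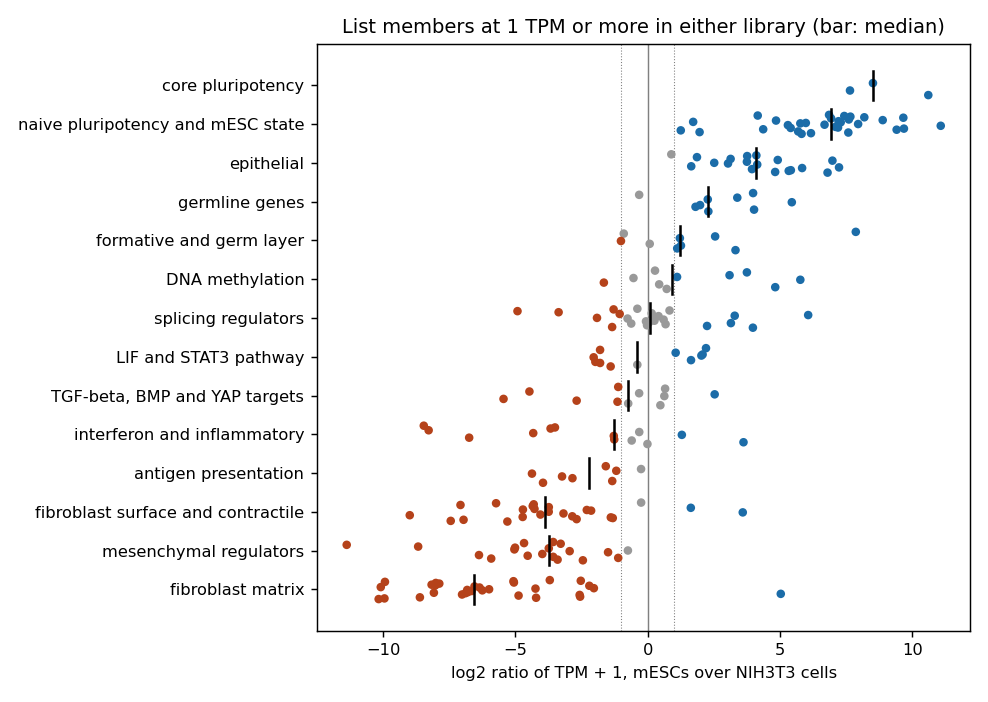
Log2 ratio of TPM + 1 (mESCs over NIH3T3 cells) for every member of each gene list that reached 1 TPM, 1 point per gene and 1 row per list. The naive pluripotency and epithelial rows lie to the right of 0, the mesenchymal regulators to the left, and the matrix row to the left except for Loxl2, while splicing regulators spread over both sides around a median of 0.10.

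Regulatory groups gave mixed pictures. Among 10 genes of DNA methylation 5 were higher in mESCs and 1 in NIH3T3 cells. Dnmt3l, the catalytically inactive partner of the de novo methyltransferases, stood at 334 TPM in mESCs and 5.16 in NIH3T3 cells. The methyltransferase gene Dnmt3b stood at 55.3 and 3.19, and the dioxygenase gene Tet2 at 55.4 and 5.61. Tet3 alone was higher in NIH3T3 cells, at 2.12 and 8.87 TPM. Of 15 inhibitors of the cell cycle and p53 targets 5 were higher in mESCs and 3 in NIH3T3 cells. Cdkn1c stood at 58.3 TPM in mESCs and 0 in NIH3T3 cells, while Cdkn2c stood at 1.17 and 66.5 and Cdkn1a, the p21 gene, at 19.2 and 45.6. Cdkn2a, which NIH3T3 cells are known to have lost, stood at 5.75 TPM in mESCs and at 0 counts in NIH3T3 cells. Hprt, a purine salvage gene in which the E14TG2a line is known to be deficient, stood at 0.0522 TPM, from 1 count, in mESCs and 131 in NIH3T3 cells.

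In the LIF pathway, whose ligand was in the medium of both cell types, 5 of 11 genes were higher in mESCs and 5 in NIH3T3 cells. The specific receptor chain gene Lifr stood at 30.4 TPM in mESCs and 6.48 in NIH3T3 cells, but the shared chain gene Il6st stood at 53.1 and 213 and the kinase gene Jak1 at 38.5 and 137. Stat3, the transcription factor they activate, stood at 75.7 and 99.9 TPM. The feedback inhibitor gene Socs3 stood at 90.3 and 43.0, and the kinase gene Pim3 at 113 and 23.9. Receptor chains and targets were thus divided between the cell types within 1 pathway. In a list of 11 signalling targets, of TGF-beta, BMP, YAP and, with Axin2, Wnt, 1 was higher in mESCs and 5 in NIH3T3 cells. The YAP targets Cyr61 (5.32 and 139 TPM) and Ankrd1 (0.0713 and 45.9) and the BMP target Id3 (24.1 and 161) were among the latter. The 1 higher in mESCs was the Wnt target Axin2, at 5.26 and 0.0856 TPM.

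Antigen presentation genes were higher in NIH3T3 cells in 7 of 8 cases and in mESCs in 0. B2m, the light chain of MHC class I, stood at 31.0 TPM in mESCs and 497 in NIH3T3 cells, the heavy chain gene H2-D1 at 10.9 and 84.4, and the peptide transporter gene Tap2 at 0.152 and 22.9. Of 13 interferon and inflammatory genes 8 were higher in NIH3T3 cells and 2 in mESCs. The chemokine genes Cxcl5 (0.174 and 414 TPM) and Ccl2 (0 and 310) led the first group. Bst2, a restriction factor of enveloped viruses, went against them with 59.7 TPM in mESCs and 3.95 in NIH3T3 cells.

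Genes outside the protein-coding class differed more often, with 717 of 2362 (30.4%) higher in mESCs and 578 (24.5%) in NIH3T3 cells. Long intergenic RNAs leaned toward mESCs, with 209 of 518 higher there and 137 higher in NIH3T3 cells. Antisense RNAs leaned the other way, with 73 and 88 of 260, as did RNAs from bidirectional promoters, with 4 and 18 of 40. Reads were from stranded libraries, but the strand setting of the quantification is not given in the sources used here, so overlapping antisense genes stay uncertain.

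Among named long noncoding RNAs 8 of 27 were higher in mESCs, 7 in NIH3T3 cells and 12 lay within 2-fold. Platr10 and Platr14, pluripotency-associated transcripts, stood at 127 and 155 TPM in mESCs and 0.0571 and 3.87 in NIH3T3 cells. Lncenc1 stood at 161 and 0.354 TPM, and Mir17hg, the host of the miR-17 to miR-92 cluster, at 23.5 and 7.48. Tsix, the antisense partner of Xist, stood at 10.2 and 0. The nuclear speckle RNA Malat1 stood at 54.9 TPM in mESCs and 259 in NIH3T3 cells, the snoRNA host Gas5 at 414 and 1483, and Pvt1 at 14.2 and 55.1. Dnm3os, the host of miR-199a and miR-214, stood at 0.0216 and 37.7 TPM, and the miR-22 host Mir22hg at 2.40 and 32.6. The transcripts of the imprinted Dlk1-Dio3 region did not follow Dlk1. Meg3 stood at 167 and 285 TPM, Rian at 329 and 384 and Mirg at 30.3 and 43.6, all within 2-fold, whereas Dlk1 itself stood at 0.654 and 2629.

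By the rule of largest ratio, the leading long intergenic RNAs of mESCs also held Gm46332 (154 TPM in mESCs, 0.174 in NIH3T3 cells), Platr13 (72.9 and 0) and Gm48170 (60.6 and 0). In NIH3T3 cells they were Wincr1 (0 and 121 TPM), Gm47034 (0 and 71.4), AL805899.1 (0.215 and 45.3) and Ptgs2os2 (0 and 27.3). The antisense RNA 1700097N02Rik stood at 37.3 TPM in mESCs and 0 in NIH3T3 cells, and BC023719 at 0 and 34.7. 3110039I08Rik, which has no protein-coding transcript and whose most abundant transcript keeps an intron, stood at 1.74 and 237 TPM.

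When transcripts rather than genes were sorted by class, the profiles were close. Protein-coding transcripts held 72.7% of TPM in mESCs and 73.3% in NIH3T3 cells, processed transcripts without a reading frame 9.03% and 8.37%, and processed pseudogenes 5.04% and 4.44%. Transcripts marked for nonsense-mediated decay held 3.97% and 3.87%. Transcripts that keep an intron held 7.40% and 7.92%, and 5240 of them reached 1 TPM in mESCs and 6213 in NIH3T3 cells. All 2202 microRNA entries were at 0 in both libraries, and the RNA selection, which bears on noncoding, histone and intron-keeping transcripts, is unknown. Within 7338 protein-coding genes with at least 2 transcripts and 5 TPM and 100 counts in both libraries, the mean share of intron-keeping transcripts was 8.02% in mESCs and 9.26% in NIH3T3 cells. It was at least 20 percentage points higher in mESCs for 61 genes and in NIH3T3 cells for 134. Examples at 50 TPM or more in both libraries were chosen after their values were seen. Tbp, the TATA-binding protein gene, went from 0.390% in mESCs to 39.6% in NIH3T3 cells. Gapdh, the glycolytic enzyme gene, went from 5.98% to 37.6%, but it has near-identical copies that took part of the reads, so its shares are uncertain. The helicase gene Dhx16 went the other way, from 76.8% in mESCs to 47.0% in NIH3T3 cells, as did Ndufa5, a respiratory complex I subunit gene, from 38.2% to 5.92%.

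Part of the largest ratios lay in genes that have near-identical copies, among which reads cannot be divided with certainty. A sequence match of at least 95% identity over at least 80% of the length was found for 481 of the 11140 genes at 5 TPM or more whose sequence could be compared. Of 289 pseudogenes with such a copy, 66 differed by at least 8-fold between the libraries. When each was summed with its family, 46 of these 66 lay within 2-fold, and the median absolute log2 ratio was 5.06 for the pseudogene and 0.61 for the family. The best match was a ribosomal protein gene for 26 of them, and for 11 it was a gene past 2-fold in the opposite direction.

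The ferritin light chain, the iron store of the cell, lay in a family whose members ran in opposite directions. Ftl1 stood at 8.47 TPM in mESCs and 1987 in NIH3T3 cells, and its pseudogene Ftl1-ps1, 99.6% identical, at 4584 and 6.57. Their family sum was 6833 and 1994 TPM, a log2 ratio of 1.78 toward mESCs. In the Rps18 family, Gm11361 (0 and 2049 TPM) and Gm10260 (1.37 and 2030) were among the 15 largest ratios toward NIH3T3 cells, but Rps18 itself stood at 4336 and 490 and the family at 4338 and 4634. The Gapdh pseudogene Gm13394 stood at 0.722 and 1434 TPM and its family at 6451 and 5165. The 40S subunit gene copies Rps3a2 (1768 and 0.875 TPM) and Rps3a1 (1159 and 3378) belonged to a family at 3915 and 3381. The histone genes Hist1h2ao (812 and 0 TPM) and Hist1h2ap (0.000497 and 288) are identical in sequence. A family sum pools the reads of its members, but the TPM of each copy is corrected for its own length. Where copies differ in length, the sum thus still depends in part on how reads were divided. In estimated counts the Ftl1 family held 71668 in mESCs and 39367 in NIH3T3 cells. Which copy was transcribed cannot be told apart here. Protein-coding genes with a copy moved less on summing: of 34 past 8-fold, 7 had a family within 2-fold.

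**Figure D3:**
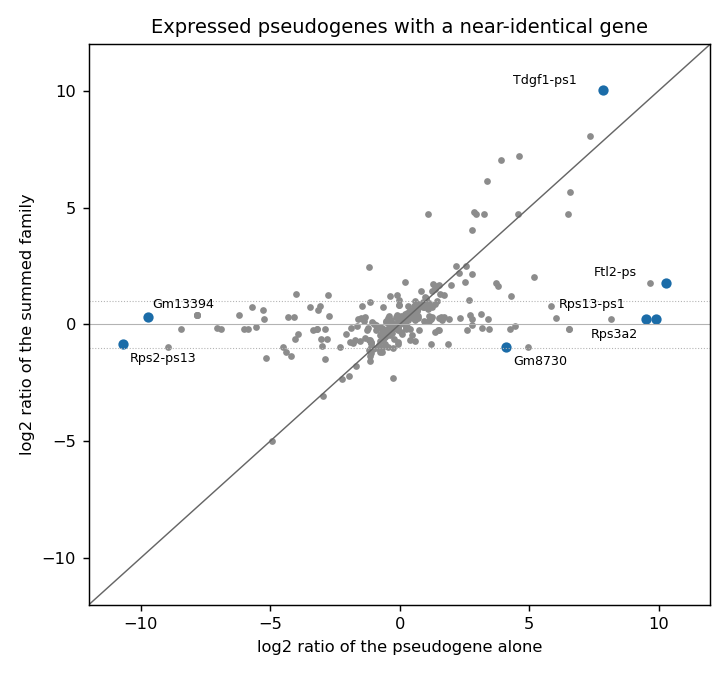
Log2 ratio of TPM + 1 (mESCs over NIH3T3 cells) of pseudogenes that have a near-identical copy, as the pseudogene alone (horizontal axis) and as the sum of its family (vertical axis). Genes classed as protein-coding are not plotted. Pseudogenes far out on the horizontal axis lie mostly near 0 on the vertical axis, as the 46 of 66 past 8-fold that fall within 2-fold.

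Isoform choice was compared for 7439 genes with at least 2 transcripts, 5 TPM and 100 estimated counts in both libraries. The shift was the share of a gene's TPM that moved between its transcripts, from 0 (same shares) to 1 (no transcript in common). Its median was 0.126, and 3033 genes (40.8%) had a shift under 0.1. The leading transcript differed in 1262 genes. A switch, with a different leading transcript and a shift of at least 0.5, was found in 203 genes (2.73%), of which 76 also differed by at least 2-fold as genes. Of 129 switches between protein-coding transcripts that could be placed on the annotation, 95 changed the coding sequence and 34 did not. Their starts lay over 1 kb apart in 54, and 31 had an exon in the body of 1 transcript that the other lacks. kallisto splits shared reads by a model, and no error of these shares is given in the tables.

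Exons that were in the leading transcript of 1 cell type and skipped in the other are printed here because they show what was added to or left out of the protein. Exon bases are in capitals, with 15 bases of the spliced neighbours on either side in lower case, taken from GENCODE M21 transcripts.
Map3k7 exon: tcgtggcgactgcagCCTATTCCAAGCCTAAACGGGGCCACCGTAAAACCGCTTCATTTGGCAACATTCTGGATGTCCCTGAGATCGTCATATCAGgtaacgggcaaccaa
Rai14 exon: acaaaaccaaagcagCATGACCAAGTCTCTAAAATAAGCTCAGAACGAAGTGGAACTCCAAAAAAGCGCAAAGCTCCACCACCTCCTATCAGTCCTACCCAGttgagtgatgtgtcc
Atp6v0a1 exon: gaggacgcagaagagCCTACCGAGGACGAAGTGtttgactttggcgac
Elavl2 exon: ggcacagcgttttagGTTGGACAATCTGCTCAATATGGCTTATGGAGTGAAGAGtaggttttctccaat
Spp1 added bases: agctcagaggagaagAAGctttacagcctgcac
Each of these 5 has a length that is a multiple of 3, so the reading frame goes on after it. They are printed 5′ to 3′ on the strand of their gene, with positions in GRCm38, and Rai14, Atp6v0a1 and Elavl2 were chosen after their values were seen.

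The Map3k7 exon lies at chr4:31994874-31994954 on the plus strand and is 81 bases long. Map3k7 encodes TAK1, the kinase that joins TGF-beta and inflammatory receptors to downstream kinases. Transcripts with the exon made up 94.2% of the TPM of those that span it in mESCs and 16.9% in NIH3T3 cells. In Rai14, an actin-associated protein gene, the exon at chr15:10589259-10589345 on the minus strand (87 bases) was in 70.8% in mESCs and 18% in NIH3T3 cells. The 18-base exon of Atp6v0a1, a subunit of the proton pump of vesicles, lies at chr11:101049459-101049476 on the plus strand. It was in 54.0% in mESCs and 0.0138% in NIH3T3 cells. The 39-base exon of the neuronal RNA-binding protein gene Elavl2, at chr4:91254141-91254179 on the minus strand, was in 51.5% and 0%. Elavl2 was low, at 7.95 TPM with the exon and 7.49 without it in mESCs, and 0 and 5.04 in NIH3T3 cells. In all 4 the longer form was the commoner one in mESCs, but Rai14, Atp6v0a1 and Elavl2 were chosen after their values were seen. Spp1, which encodes the secreted phosphoprotein osteopontin, went the other way. The 3 added bases at chr5:104436901-104436903 on the plus strand were in 0% of the mESC transcripts and 94.6% of those of NIH3T3 cells. Myl6, a myosin light chain gene, had a 45-base exon at chr10:128491720-128491764 on the minus strand in 3.36% and 47.6%.

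**Figure D4:**
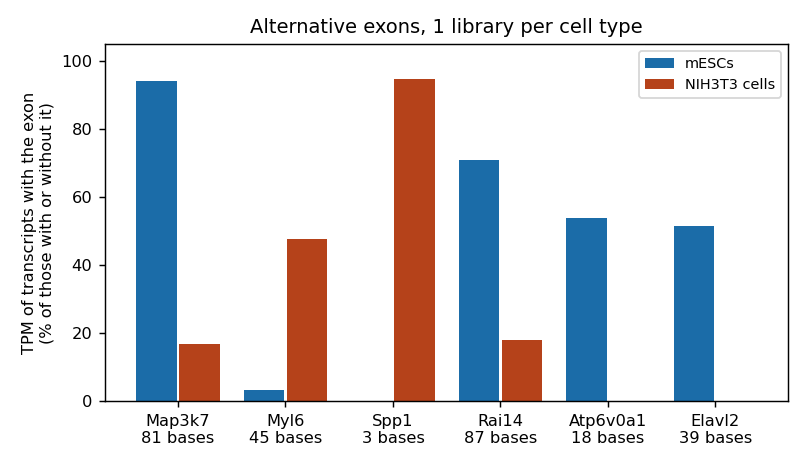
Share of TPM (percent) in transcripts that hold the named exon, among the transcripts of the gene that span it, with 1 bar for mESCs and 1 for NIH3T3 cells per gene. Map3k7, Rai14, Atp6v0a1 and Elavl2 have the taller bar in mESCs, and Myl6 and Spp1 in NIH3T3 cells.

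In some switches the leading transcripts had distant starts. Lima1 encodes an actin crosslinker, also called EPLIN. In mESCs the long form Lima1-201 held 90.7% of the TPM of the gene, and in NIH3T3 cells 4.18%. The short form Lima1-202, which starts 55313 bp downstream, held 0% and 93.2%, and its coding sequence is 1779 bases against 2259. Myo10 encodes the myosin of filopodia, and here the short form stood on the mESC side. Myo10-201, with 3948 coding bases, held 45.4% in mESCs and close to nothing in NIH3T3 cells, while Myo10-202, with 6186, held 17.6% and 75.7%, and the starts are 130385 bp apart. In Utrn, the gene of the dystrophin relative utrophin, the short Utrn-206 (2868 coding bases) held 61.3% and 0%, and the full-length Utrn-201 (10290) held 16.9% and 78.4%. Myo10 and Utrn, like Nasp below, were chosen after their values were seen.

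Dnmt3l, described above for its level, had a shift of 1.00, with Dnmt3l-201 at 80.2% in mESCs and close to 0 in NIH3T3 cells, and the shorter Dnmt3l-203, which starts 5493 bp downstream, at 0% and 59.0%. The gene had 101 estimated counts in NIH3T3 cells, so the share there is imprecise. Dnmt3a, the de novo methyltransferase, had a shift of 0.54. Its leading transcript in mESCs, Dnmt3a-205 with 2067 coding bases, matches the short form known from stem cells as Dnmt3a2, and held 35.6% in mESCs and 2.52% in NIH3T3 cells. Dnmt3a-218, with 2724 coding bases, held 19% and 29.9%, and its start lies 84568 bp away. Nasp, a histone chaperone gene, had its long Nasp-201 at 75.6% and 27.7% and its short Nasp-203 at 0.085% and 51.9%.

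The other switches with the largest shifts were Zfp385a (1.00), Pcbd2 (0.98), Pttg1 (0.97), Epha4 (0.96), Zfp979 (0.95), Pacsin3 (0.92) and Zfp516 (0.92). In Pttg1, Epha4, Zfp979, Pacsin3 and Zfp516 the leading transcripts share their coding sequence, so these switches lie outside it. In Epha4 the class changed all the same, since its leading NIH3T3 transcript, Epha4-205 at 76.8%, is marked for nonsense-mediated decay. Zfp385a and Pcbd2 change it.

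Of 40 genes listed for cell type-specific isoforms, some of which did not reach the required level, Map3k7 (shift 0.55), Foxp1 (0.59), Fgfr1 (0.50), Cald1 (0.51), Tpm1 (0.66) and Dnmt3a switched. Over all 7439 genes compared, 203 (2.73%) switched and 2319 had a shift of at least 0.2. The leading mESC transcript of Fgfr1 was a processed transcript without a reading frame, at 26.5%. That of Tpm1 was marked for nonsense-mediated decay, at 32.1%. Foxp1 is a forkhead factor with an isoform of pluripotent cells, Fgfr1 a growth factor receptor, and Cald1 and Tpm1 regulate actomyosin. Shifts of at least 0.2 without a switch were found in Ctnnd1, the p120 catenin gene (0.46), Myl6 (0.45), the integrin gene Itga6 (0.38), the Notch regulator gene Numb (0.37), the E protein gene Tcf3 (0.30), Tcf7l2 (0.30), Nfya (0.30), Macf1 (0.29), Enah (0.24), Mef2a (0.23), Mark3 (0.22), Scrib (0.21) and Actn1 (0.20). Others kept their shares. Pkm, the pyruvate kinase gene whose exon choice differs between adult tissues, had Pkm-201 at 64.1% in mESCs and 66.8% in NIH3T3 cells, and the small GTPase genes Rac1 and Cdc42 had shifts of 0.0041 and 0.021.

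Of 24 regulators of splicing, 5 were higher in mESCs, 6 in NIH3T3 cells and 13 lay within 2-fold, close to the shares of all genes. The epithelial splicing regulator genes Esrp1 (14.7 TPM in mESCs) and Esrp2 (8.76) had no count in NIH3T3 cells, and neither did Khdrbs3 (65.8). Mbnl1, a muscleblind factor gene, stood at 5.83 TPM in mESCs and 206 in NIH3T3 cells, Celf2 at 2.00 and 30.0, and Rbfox2 at 42.7 and 90.2. The general factors Ptbp1 (888 and 930 TPM) and Srsf1 (389 and 397) were level. Whether these regulators act on the exons above was not tested.

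The study's peak lists allowed each gene to be set beside Ctr9, a subunit of the Paf1 complex that travels with RNA polymerase II, and H3K27ac, a histone mark of active promoters and enhancers. Peaks within the gene or 1 kb of it were counted for 12697 protein-coding genes, with 1 ChIP-seq library per mark and cell type. Among all of them, 61.2% had a Ctr9 peak in mESCs and 34.8% in NIH3T3 cells, and 64.0% and 82.2% had an H3K27ac peak. The lists differ in length, with 44748 and 22016 Ctr9 peaks and 19417 and 34241 H3K27ac peaks, so shares were read against those of all genes. A ratio of at least 8-fold was reached toward mESCs by 5.36% of protein-coding genes and toward NIH3T3 cells by 5.02%. Of the 680 placed genes at least 8-fold higher in mESCs, 67.5% had a Ctr9 peak in mESCs and 10.7% in NIH3T3 cells. Of the 638 at least 8-fold higher in NIH3T3 cells, 15.7% had a Ctr9 peak in mESCs and 42.9% in NIH3T3 cells. For H3K27ac the shares were 53.5% and 25.1% for the first group, and 11.6% and 91.8% for the second. Genes within 2-fold had a Ctr9 peak in 70.4% in mESCs and 40.3% in NIH3T3 cells, and an H3K27ac peak in 77.4% and 92.7%. So in the cell type with more RNA the shares of the genes that differ were near or below those of genes within 2-fold, and the gap lay in the other cell type, where 10.7% and 15.7% had Ctr9 and 25.1% and 11.6% had H3K27ac.

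At gene starts alone, within 1 kb, the 332 genes with an H3K27ac peak in mESCs only had a median log2 RNA ratio of 2.99, and 277 of them were higher in mESCs and 5 in NIH3T3 cells. The 2855 genes with such a peak in NIH3T3 cells only had a median of −0.99, and the 6503 with a peak in both had 0.16. The 3007 genes with a peak in neither had a median of 1.02, and 1524 of them were higher in mESCs and 568 in NIH3T3 cells, so most genes higher in mESCs had no mESC-only H3K27ac peak at their start. For Ctr9 the medians were nearer to 0, at 0.62 for 1254 genes with a peak in mESCs only and −0.31 for 1268 in NIH3T3 cells only.

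**Figure D5:**
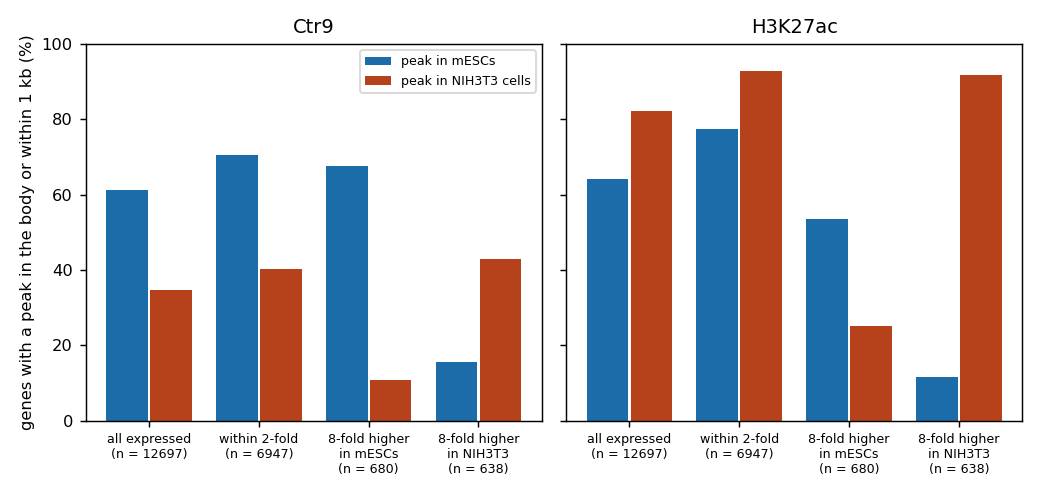
Share of protein-coding genes (percent) with a Ctr9 or H3K27ac peak in the gene or within 1 kb, for all genes and for genes at least 8-fold higher in mESCs or in NIH3T3 cells, with bars for the peak lists of both cell types. Of genes higher in NIH3T3 cells 91.8% have an H3K27ac peak there and 11.6% in mESCs.

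Single genes varied in which marks they carried. Pou5f1, Nanog, Dppa5a, Utf1, Tdgf1, Trh and Lefty2 had a Ctr9 peak in mESCs but no H3K27ac peak in the gene or within 1 kb. Pou5f1 and Dppa5a were nonetheless among the highest of all mESC transcripts. Peaks farther from the gene were not counted, so H3K27ac at a more distant enhancer would be missed. For Pou5f1 (Oct4), the paper reports that Ctr9 overlaps H3K27ac at the annotated enhancers in mESCs. Sox2, Zfp42 and Esrrb had both marks in mESCs and neither in NIH3T3 cells. Col1a1, Col1a2 and S100a4 had both marks in NIH3T3 cells and neither in mESCs, while Col3a1, Thy1 and Twist1 had H3K27ac there without Ctr9. Prl2c2, which has a near-identical copy, had no peak of either kind, and the ChIP-seq reads were aligned with the default settings of bowtie2. Klf4, Fn1 and Vim had both marks in both cell types and RNA in both.

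The stretches just before the starts of Zfp42 and S100a4 are shown, chosen after the motif matches were seen, with the Oct4 octamer letters or the TATA box letters in capitals. They are RefSeq starts of GRCm38.p6, printed 5′ to 3′ on the strand of the gene, at chr8:43307010-43307259 (minus) and chr3:90603520-90603769 (plus).
Zfp42: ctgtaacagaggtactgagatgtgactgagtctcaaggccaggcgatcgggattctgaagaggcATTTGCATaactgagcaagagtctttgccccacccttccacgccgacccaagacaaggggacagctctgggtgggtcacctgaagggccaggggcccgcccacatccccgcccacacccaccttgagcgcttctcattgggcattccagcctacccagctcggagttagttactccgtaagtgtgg
S100a4: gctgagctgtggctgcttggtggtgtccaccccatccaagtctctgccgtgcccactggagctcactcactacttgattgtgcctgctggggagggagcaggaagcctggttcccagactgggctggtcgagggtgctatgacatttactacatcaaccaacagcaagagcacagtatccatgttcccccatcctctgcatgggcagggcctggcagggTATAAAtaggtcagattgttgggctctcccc
The window of 300 bases around the Zfp42 start overlapped a Ctr9 peak of mESCs and no peak of NIH3T3 cells. That of S100a4 overlapped an H3K27ac peak of NIH3T3 cells and no peak of mESCs. Over all 27025 RefSeq promoters of this length, which run from 250 bases before the start to 50 after, ATTTGCAT on either strand was in 1.75%, TATAAA on either strand in 14.2% and the AP-1 letters TGANTCA in 7.93%. Among promoters of protein-coding genes in the comparison the shares were 1.46%, 6.53% and 4.68%. They were 2.78%, 9.54% and 4.57% for genes at least 8-fold higher in mESCs and 2.55%, 13.6% and 7.43% for those higher in NIH3T3 cells. Both groups also held fewer CpG dinucleotides, with a median of 15 and 16 per promoter against 21. Among the promoters of other markers looked at, Pou5f1, Sox2, Nanog, Esrrb, Klf4, Utf1, Tdgf1 and Trh held none of the 3 motifs. On the fibroblast side Col1a2, Col5a1 and Prrx1 held none, Twist1 and Vim held TATAAA, and Col3a1 held both the octamer and TATAAA. So Zfp42 does not stand for its side. Only these exact letters were searched, so a variant of a motif was not counted. A match gives letters in this window and is not a binding site.

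Where a switch moved the start by more than 2.5 kb, H3K27ac could be read at both starts, within 500 bp. Here the mESC start and the NIH3T3 start are the annotated starts of the transcripts that lead there, and their use was not tested. Over 82 such genes, the mESC start had a peak in mESCs only in 14 and in NIH3T3 cells only in 8. The NIH3T3 start had a peak in mESCs only in 2 and in NIH3T3 cells only in 29. Of 6073 genes with the same leading transcript in both, 30 (0.494%) had a peak at their start in mESCs only and 1111 (18.3%) in NIH3T3 cells only. Dnmt3l had a peak at its mESC start in mESCs only and at its NIH3T3 start in NIH3T3 cells only. Lima1 had a peak at the start of its long form in both cell types and at that of its short form in NIH3T3 cells only. Myo10 and Utrn had a peak at the mESC start in mESCs only. At the NIH3T3 start Myo10 had a peak in both cell types and Utrn in neither. Dnmt3a had no peak at either start. Of the 82 mESC starts 42 (51.2%), and of the NIH3T3 starts 28 (34.1%), had no peak in either cell type. Among the 6073 genes with the same leading transcript, 669 (11.0%) had none.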

How the data were processed

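RNA of mESCs and NIH3T3 cells was measured by RNA-seq, 1 library each. The authors quantified each library with kallisto 0.46.1 against GENCODE M19, and the deposited tables give an estimated count and a TPM for every transcript. The deposited TPM values sum to 1000000. The authors called ChIP-seq peaks with macs2 on mm10, and the positions of their Ctr9 and H3K27ac peaks were used. The deposited fold ratio and −log10 values of the peaks were not used.

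TPM was summed over 137767 transcripts by gene symbol and compared as log2(TPM + 1) for genes at 1 TPM or more in either library. Of 54352 symbols, 93 cover more than 1 gene identifier. Genes at 0 were given a lower bound against a floor of 3 counts, which covers counting error only. Copies were found with blastn 2.17.0. Gene, start and exon positions came from GENCODE M21 (GRCm38). Python 3.11.15, pandas 2.3.3 and NumPy 2.4.6 were used. The fold calls, the isoform shift and the overlap of intervals were checked on simulated data, and the other steps were not. No test was made, since there is no replicate.

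Genes were named when they had the 15 largest ratios on either side, led or opposed a list, led a noncoding class, had the 10 largest switches, were switched list members, or were highest or nearest to equality, and others are said to be chosen after their values were seen. The members and lists were chosen with earlier results of these data known. Peak lists of NELFA and of RNAPII Ser5p and Ser2p were not used here.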

Additional observations from a re-analysis of the deposited data

How the results depend on the processing

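The counts of 3839 and 3208 genes past 2-fold ranged from 2653 to 4269 toward mESCs and from 2433 to 3577 toward NIH3T3 cells with another pseudocount (0.1), another minimum level, the highest transcript per gene, other scalings, length-uncorrected count shares or gene identifiers. At a fold of 4 they were 1631 and 1432. Of all calls, 52.2% to 56.0% were toward mESCs. Copies summed with their best match, an alternative chosen after seeing the data, gave 3706 and 3090. The pooled list counts stayed at 51 to 52 of 53 genes and at 69. Of 123 recomputed ratios of named genes 0 changed direction. In size, 21 were labelled as moved, but none of these belonged to a gene at 0 in either cell type. The label thus does not measure how stable the ratios were. With a pseudocount of 0.1 the log2 ratio of Pou5f1, at 0 in NIH3T3 cells, went from 10.60 to 13.92 without this label. That of Prl2c2, at 0 in mESCs, went from −12.14 to −15.46 without it, and that of Bgn from −9.93 to −11.30 with it.

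Isoform switches numbered 149 with protein-coding transcripts only, 45 of 3847 genes with at least 1000 estimated counts, and 589 at a shift of at least 0.3. By estimated counts, protein-coding transcripts held 86.9% in mESCs and 87.1% in NIH3T3 cells, since counts are not divided by length. At 4-fold, 833 of 1339 genes higher in mESCs had a Ctr9 peak there (62.2%, against 61.2% of all genes) and 701 an H3K27ac peak (52.4%, against 64.0%). Of 1237 higher in NIH3T3 cells 498 (40.3%, against 34.8%) and 1127 (91.1%, against 82.2%) had them there. At the gene start only, at 8-fold, 185 (27.2%, against 20.1%) and 217 (31.9%, against 53.8%) had them in mESCs, and 112 (17.6%, against 20.2%) and 520 (81.5%, against 73.7%) in NIH3T3 cells. No paired analysis was possible because there is 1 library per cell type. Genes with few counts carry wide intervals, and a 0 limits a level only to the floor.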

Other observations

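Of 9 germline genes that reached 1 TPM, 8 were higher in mESCs and 0 in NIH3T3 cells, against 25.5% and 21.3% of all genes. Sycp3, a protein of the synaptonemal complex, stood at 57.8 TPM in mESCs and 0.352 in NIH3T3 cells, and Tdrd12, of the piRNA pathway, at 16.1 and 0.0839. Tex19.1 (15.2 TPM), Hormad1 (9.43) and Ddx4 (3.89) had no count in NIH3T3 cells. Sycp1 stood at 1.28 and 1.85 TPM. Of 9 genes of the two-cell stage, 1 reached 1 TPM, Zscan4f at 1.24 in mESCs and 0.336 in NIH3T3 cells.

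The Y-linked genes Eif2s3y (96.2 TPM in mESCs, 1.23 in NIH3T3 cells), Ddx3y (16.2 and 1.17) and Uty (13.5 and 1.21) were low but not at 0 in NIH3T3 cells, and Xist stood at 0.914 and 0.0506. By chromosome, among protein-coding genes at 5 TPM or more in either library, the median log2 ratio was highest among the autosomes for chromosome 14, at 0.83 over 390 genes, with 173 of them higher in mESCs and 42 in NIH3T3 cells. Over genes of all classes at 5 TPM or more, 23.0% were higher in mESCs and 21.1% in NIH3T3 cells. Chromosome 8 followed chromosome 14 with 0.47 over 584 genes, and chromosome 19 was lowest at −0.30.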
